A study of Homo sapiens with 6 samples.

Results

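The squamous and basal-like program was followed through 10 genes in xenograft tumors of the human pancreatic adenocarcinoma line BxPC-3: TP63, S100A2, SPRR1B, SPRR3, IVL, SERPINB3, SERPINB4, TRIM29, DSG3 and DSC3. The list of members was chosen with earlier results of these data known, and every array probe that carried 1 of these symbols was kept. This gave 11 probes of the 50599 on the array, since DSC3 had 2 probes, and all 11 were well above background in every tumor. No member probe passed the unadjusted threshold of 0.05 between tumors from mice given the oral iron chelator deferasirox (DFX) and tumors from mice given vehicle (limma), a threshold that 8.41% of all 31807 tested probes passed. The point estimates were lower with DFX for 8 of the 11 probes, the widest gap being that of SPRR3 at 39.1% lower. TRIM29, at 16.6% lower, was the only member whose 3 treated tumors all lay below its 3 control tumors. Of all tested probes, 9.15% were separated in this direction.

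Pancreatic adenocarcinomas are commonly divided into a classical type, which keeps gastrointestinal gene expression, and a basal-like or squamous type, which turns on genes of stratified epithelium such as skin and esophagus. The transcription factor p63, encoded by TP63, is the master regulator of that program. Below it stand proteins of the basal layer, the desmosomal cadherins that hold neighboring cells together, and the late products of squamous differentiation, which are cross-linked under the cell membrane into a tough cornified envelope.

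The tumors were grown from 1 cell line, injected with Matrigel under the skin of the backs of female BALB/c (nu/nu) mice, which were 8 to 10 weeks old and lack mature T cells. Once a tumor had reached 150 mm3, DFX was given by oral gavage in saline on alternate days, 3 times per week, at 200 mg/kg, and tumors were taken at day 21, while control mice received the vehicle alone on the same schedule. Of 5 mice per treatment group, 3 tumors per group were hybridized, each to 1 Agilent 60-mer single-color array for human genes. All 6 arrays lay on 1 slide, with the control tumors (Control 1 to 3) in its first row and the treated tumors (DFX 1 to 3) in its second row, so that slide row and treatment cannot be told apart.

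Values are normalized log2 intensities, in which a difference of 1 is a doubling, and the level of 1 probe was not set against that of another. Between 50.3% and 56.5% of the probes of an array were well above background, the lowest share being that of DFX 2, no spot was saturated, and log2 intensities of any pair of arrays correlated at 0.980 to 0.990. The epithelial origin showed in 9 of 9 epithelial carcinoma markers well above background on all arrays, with a summed intensity of 740765 to 790320 in the control and 782844 to 790122 in the treated tumors, and 3 of them, KRT8, KRT18 and EPCAM, were higher with DFX at an unadjusted limma p under 0.05. Of 15 markers of surface keratinocytes, 3 were well above background on all arrays. Another 6, among them KRT2, LCE1B and LCE2B, were so on no array, which on probes for human genes says nothing of mouse skin. All 15 markers together summed to 14625 to 15625 in the control and 13604 to 13826 in the treated tumors. Of 12 fibroblast markers, 8 were well above background on all arrays and 2, POSTN and PDGFRB, on no array. The fibroblast markers summed to 14418 to 23805 in control and 13279 to 16348 in treated tumors. Of 11 leukocyte markers on the array, 7 were well above background on all arrays and 2 on no array. The leukocyte markers summed to 16444 to 19253 in control and 15890 to 17560 in treated tumors. Of the 9 tested fibroblast markers, DCN and PDGFRA were lower with DFX at the same threshold and LUM was higher. Of 10 endothelial markers, 4 were well above background on all arrays and 4, KDR, CLDN5, ROBO4 and EMCN, on no array. The endothelial sums were 746 to 1091 in control and 698 to 736 in treated tumors. Of the 6 tested endothelial markers, TIE1 and ENG were lower with DFX at that threshold and PECAM1 was higher. Of all tested genes, 7.98% passed it. The tumors grew in mice and the probes are for human genes, so these values are not a measure of mouse fibroblasts, leukocytes or endothelium. The part of the marker differences between groups in the results below was not tested.

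TP63 was read by a single probe at chr3:189586433-189586492 on the plus strand (hg19), and its sequence is shown because the array lists 4 TP63 transcripts for it, so that the value is a total over these and not that of 1 isoform.
TP63 probe: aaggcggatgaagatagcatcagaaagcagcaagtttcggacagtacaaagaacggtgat
The TP63 level was 7.17, 7.49 and 7.37 in Control 1, 2 and 3 and 7.43, 7.44 and 7.65 in DFX 1, 2 and 3. The groups overlapped, with the lowest value in Control 1 and the highest in DFX 3. The mean was 7.34 ± 0.16 (SD, n = 3) in control and 7.51 ± 0.12 (SD, n = 3) in treated tumors, a log2 fold change of 0.16 (standard error 0.13, 95% interval -0.16 to 0.48, limma adjusted p = 0.749). The interval thus covered both a small decrease and an increase of the regulator itself. As these are bulk tumors, fewer cells of a type and less RNA per cell cannot be told apart, here and for every gene below.

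S100A2 encodes a calcium-binding protein of the basal layer of squamous epithelium. Its probe (chr1:153533831-153533890, minus strand, hg19) gave 17.21, 17.39 and 17.86 in Control 1, 2 and 3 and 17.38, 17.29 and 17.55 in DFX 1, 2 and 3. The treated tumors lay inside the range of the control tumors, both of whose extremes were controls, Control 1 the lowest and Control 3 the highest. The log2 fold change was -0.08 (standard error 0.19, 95% interval -0.55 to 0.39, limma adjusted p = 0.924), and it turned to 0.11 when Control 3 was left out.

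TRIM29, also called ATDC, is a tripartite motif protein of basal epithelium that is known for its high level in pancreatic carcinoma. Its probe (chr11:119982283-119982342, minus strand, hg19) gave 14.01, 14.04 and 14.05 in Control 1, 2 and 3 and 13.71, 13.93 and 13.67 in DFX 1, 2 and 3. The control tumors were nearly equal, and every treated tumor lay below all of them, with DFX 2 the closest. Such a separation was found for 1 of 11 member probes, against 15.5% of all 31807 tested probes, of which 9.15% were separated with the treated tumors lower and 6.34% with them higher. The mean was 14.03 ± 0.022 (SD, n = 3) in control and 13.77 ± 0.14 (SD, n = 3) in treated tumors, and the log2 fold change was -0.26 (standard error 0.11, 95% interval -0.54 to 0.012, limma adjusted p = 0.608). The interval just reached 0, and TRIM29 passed the unadjusted threshold when DFX 2 was left out, where the log2 fold change was -0.34 (limma adjusted p = 0.626). The spread of TRIM29 within groups, 0.10 on the log2 scale, was low, at percentile 13.4 of the tested probes, whose median spread was 0.22.

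**Figure D1:**
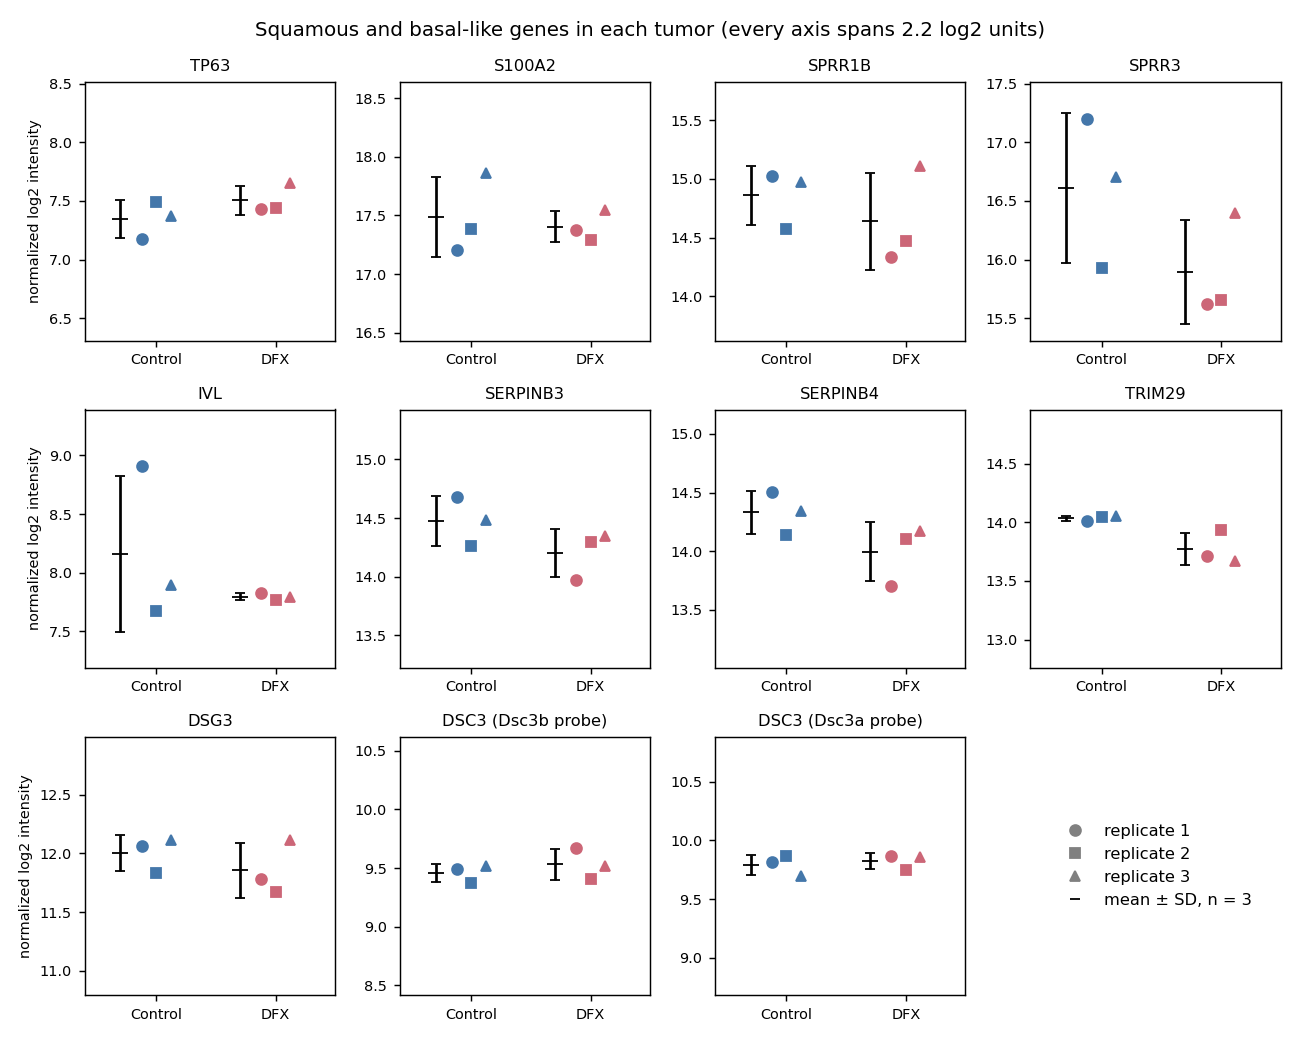
Normalized log2 intensity (y axis) of each of the 11 member probes in the 3 control tumors (blue) and the 3 DFX-treated tumors (red), with marker shapes for the replicate numbers and black bars for the mean ± SD. TRIM29 is the only panel without overlap between groups, SPRR3 and IVL have the widest spread, and each axis covers the same span.

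The cadherins of the desmosome, the rivet-like junction between keratinocytes, had point estimates from -0.15 to 0.07 and did not pass the test. DSG3, the desmoglein of the basal layers, was at 12.06, 11.83 and 12.12 in Control 1, 2 and 3 and at 11.78, 11.67 and 12.12 in DFX 1, 2 and 3 (probe at chr18:29058356-29058415, plus strand, hg19). DFX 1 and DFX 2 lay below every control tumor, whereas DFX 3 was level with the highest control. The log2 fold change was -0.15 (standard error 0.16, 95% interval -0.54 to 0.24, limma adjusted p = 0.808).

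DSC3, the matching desmocollin, had a pair of probes, named here Dsc3b and Dsc3a after the array's descriptions (chr18:28571035-28571094 and chr18:28576935-28576994, both on the minus strand, hg19). The array lists the same 2 DSC3 transcripts for each probe, so neither value is that of 1 variant. The Dsc3b probe gave 9.49, 9.37 and 9.51 in Control 1, 2 and 3 and 9.67, 9.41 and 9.52 in DFX 1, 2 and 3. The Dsc3a probe gave 9.81, 9.86 and 9.70 in Control 1, 2 and 3 and 9.87, 9.74 and 9.86 in DFX 1, 2 and 3. The groups overlapped on both probes, and the tumors fell in a different order on each. The log2 fold changes were 0.07 (standard error 0.12, 95% interval -0.21 to 0.36) and 0.03 (standard error 0.10, 95% interval -0.22 to 0.29), with limma adjusted p of 0.871 and 0.944. The Dsc3a probe varied least of all members, its spread of 0.078 within groups standing at percentile 7.41 of tested probes, and its interval held changes of the group means to between -0.22 and 0.29 on the log2 scale.

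The late products of squamous differentiation included SPRR3 and IVL, the members in which the 6 tumors were furthest apart. SPRR1B and SPRR3 encode small proline-rich proteins and IVL encodes involucrin, all of them building blocks of the cornified envelope, and the 3 genes lie together in the epidermal differentiation complex on chromosome 1. The 250 bases before the annotated start of each are shown (RefSeq, GRCh38.p14, plus strand) because each holds the letters TGANTCA, in capitals, the core bound by AP-1 factors, which are well known in the regulation of involucrin.
IVL, chr1:152908296-152908545: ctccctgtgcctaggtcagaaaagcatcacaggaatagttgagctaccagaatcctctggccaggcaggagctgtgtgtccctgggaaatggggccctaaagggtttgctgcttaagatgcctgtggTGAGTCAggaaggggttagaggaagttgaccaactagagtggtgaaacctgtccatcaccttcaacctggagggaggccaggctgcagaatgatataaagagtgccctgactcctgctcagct
SPRR3, chr1:153001499-153001748: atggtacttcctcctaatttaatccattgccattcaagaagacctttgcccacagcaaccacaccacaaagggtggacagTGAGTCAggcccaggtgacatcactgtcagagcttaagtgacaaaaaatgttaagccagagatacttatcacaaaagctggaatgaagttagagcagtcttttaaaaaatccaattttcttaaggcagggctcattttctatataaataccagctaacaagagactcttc
SPRR1B, chr1:153030953-153031202: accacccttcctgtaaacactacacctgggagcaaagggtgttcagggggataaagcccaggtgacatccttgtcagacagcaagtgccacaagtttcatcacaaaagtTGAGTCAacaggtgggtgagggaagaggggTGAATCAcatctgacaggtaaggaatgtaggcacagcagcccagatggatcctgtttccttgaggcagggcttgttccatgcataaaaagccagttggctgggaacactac
The motif begins 123 bases before the start in IVL, 170 in SPRR3 and 141 and 111 in SPRR1B, and a further copy lies 52 bases before 1 of the listed starts of S100A2. TGANTCA reads the same on both strands. It was present in 4 of the 10 promoters of the 9 members in the table, against 6.57% of all 35116 promoters of this length. A match is a description of letters and not a binding site.

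SPRR3 (probe at chr1:152976230-152976289, plus strand, hg19) was at 17.20, 15.93 and 16.71 in Control 1, 2 and 3 and at 15.63, 15.66 and 16.40 in DFX 1, 2 and 3. DFX 1 and DFX 2 were below every control tumor, but DFX 3 was above Control 2, so the groups overlapped. The mean was 16.61 ± 0.64 (SD, n = 3) in control and 15.89 ± 0.44 (SD, n = 3) in treated tumors, a log2 fold change of -0.71 (standard error 0.38, 95% interval -1.63 to 0.20, limma adjusted p = 0.650). This was the widest gap among the members, at percentile 94.3 of absolute log2 fold changes of all tested probes, and its spread within groups of 0.55 was at percentile 87.8. Without Control 2 the log2 fold change of SPRR3 was -1.06 and passed the unadjusted threshold (limma adjusted p = 0.636), and without Control 1 it was -0.42.

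SPRR1B (probe at chr1:153005304-153005363, plus strand, hg19) was at 15.03, 14.58 and 14.97 in Control 1, 2 and 3 and at 14.34, 14.47 and 15.11 in DFX 1, 2 and 3. As for SPRR3, DFX 1 and DFX 2 were below every control tumor, while DFX 3 was here the highest of all 6. The log2 fold change was -0.22 (standard error 0.24, 95% interval -0.82 to 0.37, limma adjusted p = 0.815), with -0.46 when DFX 3 was left out and -0.07 when DFX 1 was.

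IVL (probe at chr1:152883972-152884031, plus strand, hg19) was at 8.91, 7.67 and 7.89 in Control 1, 2 and 3 and at 7.82, 7.77 and 7.80 in DFX 1, 2 and 3. Control 1 stood more than 1 log2 unit above each of the other tumors, while the 3 treated tumors lay within 0.054 of each other. The log2 fold change was -0.36 (standard error 0.32, 95% interval -1.15 to 0.43, limma adjusted p = 0.769), and without Control 1 it was 0.015. The sign of the IVL estimate therefore depended on 1 control tumor.

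SERPINB3 and SERPINB4 encode the squamous cell carcinoma antigens, a pair of closely related protease inhibitors of the ovalbumin (clade B) family, whose genes lie side by side on chromosome 18. The 250 bases before their starts are shown (RefSeq, GRCh38.p14, minus strand) because they are nearly the same: 247 of 250 bases are shared (98.8%), and capitals mark the 3 that differ.
SERPINB3, chr18:63661894-63662143: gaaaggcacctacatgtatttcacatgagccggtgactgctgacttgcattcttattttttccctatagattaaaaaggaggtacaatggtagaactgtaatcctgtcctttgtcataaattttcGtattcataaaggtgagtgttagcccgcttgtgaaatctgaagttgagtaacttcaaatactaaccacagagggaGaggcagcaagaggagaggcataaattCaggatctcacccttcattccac
SERPINB4, chr18:63644257-63644506: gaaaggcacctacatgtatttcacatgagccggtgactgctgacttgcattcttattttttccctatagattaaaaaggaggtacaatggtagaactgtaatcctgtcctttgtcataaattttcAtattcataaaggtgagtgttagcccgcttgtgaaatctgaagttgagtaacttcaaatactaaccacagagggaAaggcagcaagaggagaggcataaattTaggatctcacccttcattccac
SERPINB3 gave 14.68, 14.26 and 14.48 in Control 1, 2 and 3 and 13.97, 14.29 and 14.35 in DFX 1, 2 and 3 (chr18:61322767-61322826, minus strand, hg19). SERPINB4 gave 14.51, 14.14 and 14.34 in Control 1, 2 and 3 and 13.71, 14.10 and 14.18 in DFX 1, 2 and 3 (chr18:61304925-61304984, minus strand, hg19). On both probes Control 1 was the highest tumor and DFX 1 the lowest, and the groups overlapped. The log2 fold change was -0.27 for SERPINB3 (standard error 0.17, 95% interval -0.67 to 0.13, limma adjusted p = 0.685) and -0.34 for SERPINB4 (standard error 0.17, 95% interval -0.76 to 0.085, limma adjusted p = 0.644). Taken as deviations from the mean of all 6 tumors, the values of the pair differed by at most 0.086 in any tumor. The array lists transcripts of both genes for the SERPINB3 probe and of SERPINB4 alone for the other, so the pair is not a pair of independent readings.

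**Figure D2:**
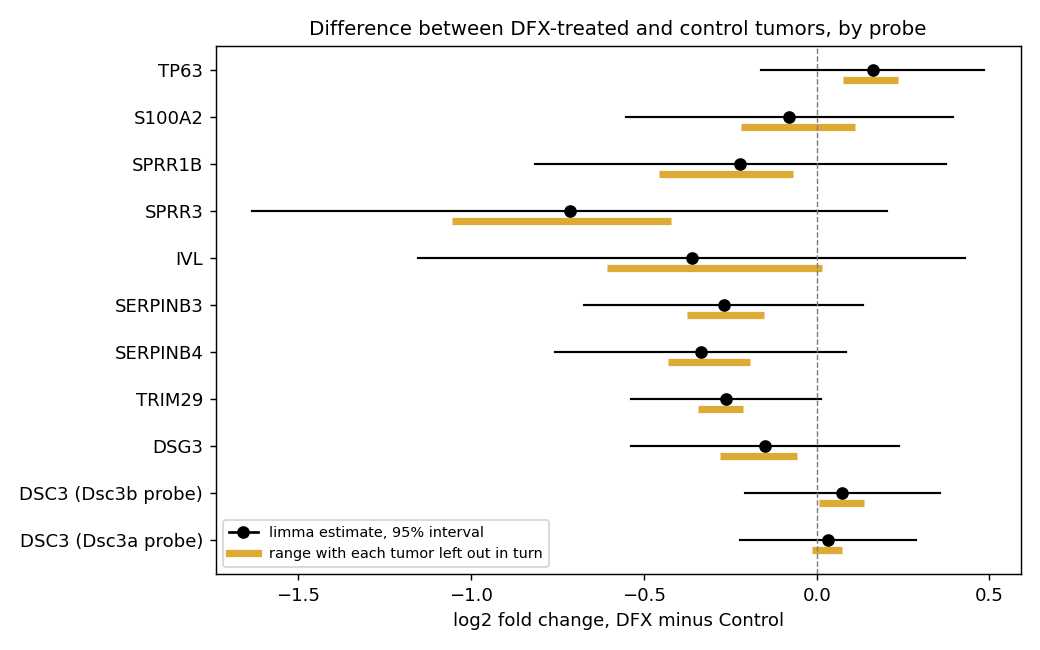
Log2 fold change between DFX-treated and control tumors (x axis) for each member probe, with the limma estimate and its 95% interval in black and, in yellow, the range of the estimate when each of the 6 tumors was left out in turn. All intervals include 0, and the leave-one-out range crosses 0 for S100A2, IVL and the Dsc3a probe of DSC3.

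Across the members, 0 of 11 probes passed an unadjusted p of 0.05 by limma, and 1, TRIM29, passed by the Kruskal-Wallis H test, which at 3 against 3 passes exactly the probes whose groups are separated (15.5% of all tested). Over all 31807 tested probes, 8.41% passed by limma at this threshold, 4.95% lower and 3.46% higher with DFX, and 0 passed after Benjamini-Hochberg adjustment. By direction, 8 of 11 member probes and 8 of 10 member genes were lower with DFX, against 52.3% of the 22718 tested genes. Counted by gene, 1 of 10 members was separated, against 15.4% of all tested genes, 8.41% with the treated tumors lower and 7.03% with them higher. The median log2 fold change over the 10 genes, each read by its brightest probe, was -0.24, against -0.012 over all tested genes. The exact permutation test of 3 against 3 tumors cannot give a p under 0.1, and the replicates are separate tumors of 1 experiment.

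The tumors themselves did not line up by treatment. Control 1 was the highest tumor for 4 of 11 member probes and the lowest for 2, TP63 and S100A2, and Control 3 was the highest for 3. DFX 1 was the lowest for 4, DFX 2 was among the 2 lowest tumors for 8, and DFX 3 was the highest for 2, TP63 and SPRR1B. Of all 22718 tested genes, Control 1 was the highest tumor for 3839, Control 3 for 5684 and DFX 3 for 3928. The lowest tumors were not counted over all tested genes, so the member counts are a description only. The median deviation from the probe mean over the 11 probes was 0.13, -0.079 and 0.15 in Control 1, 2 and 3 and -0.15, -0.086 and 0.051 in DFX 1, 2 and 3. Control 2 was therefore on the side of DFX 1 and DFX 2 and DFX 3 on the side of the other controls. DFX 2 was also the array with the smallest share of probes well above background, and the part of this in its values was not tested.

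**Figure D3:**
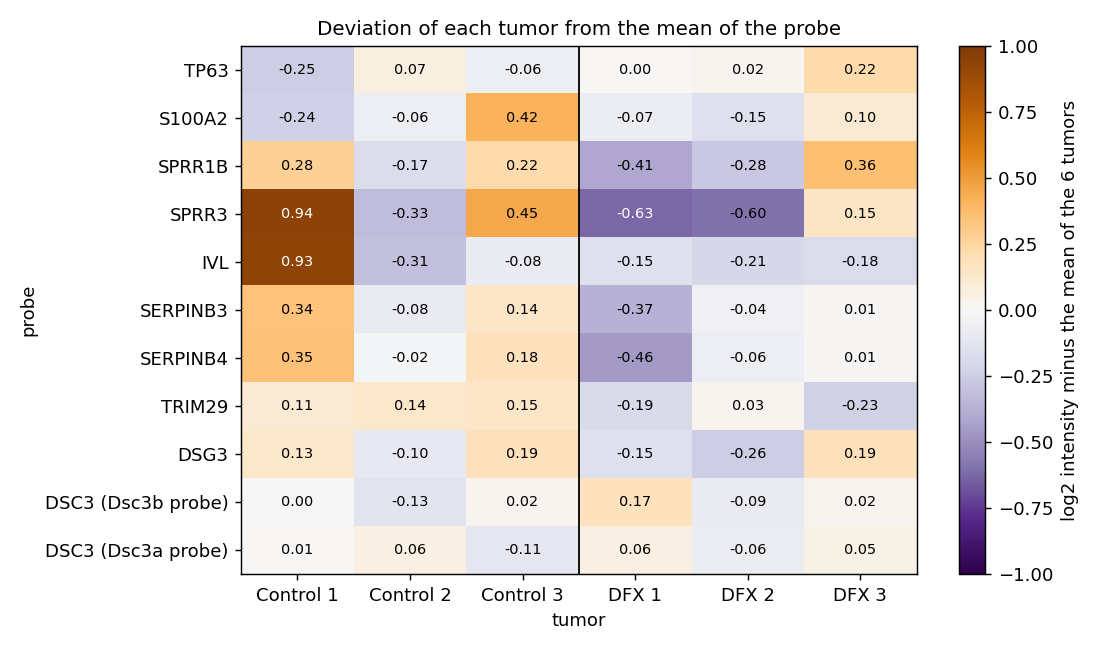
Deviation of each tumor (columns, control tumors left of the line) from the mean of the 6 tumors for each member probe (rows), in log2 units and printed in each cell, with orange for higher and purple for lower. SPRR3 and IVL in Control 1 are the strongest cells, at 0.94 and 0.93, and the SERPINB3 and SERPINB4 rows nearly repeat each other.

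The wider squamous and basal-like program was read from 100 further genes in 7 lists, some genes standing in more than 1 list, of which 86 were tested. Of these, 6 were lower with DFX at an unadjusted limma p under 0.05 and 0 were higher, which is 6.98% against 7.98% of all tested genes (4.29% lower and 3.68% higher). The 86 genes were split evenly, 43 lower and 43 higher, with a median log2 fold change of -0.0030. The number called depended on single tumors, with 3 without either DFX 1 or DFX 2, where 5.94% and 7.72% of all tested probes were called. Without Control 1, where 8.54% of all tested probes were called, the count was 11. Of these, 7 were lower and 4, CNFN, SPRR2A, SPRR2E and SPRR2F, were higher, so that the split by direction also depended on Control 1.

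The cornified envelope list, the closest to SPRR1B, SPRR3 and IVL, had 19 tested genes, of which 2 were lower at this threshold, 0 were higher, and the median was 0.014. FLG, which encodes the filament-aggregating protein filaggrin, was at 9.74, 9.77 and 9.59 in Control 1, 2 and 3 and at 8.99, 8.77 and 9.15 in DFX 1, 2 and 3. Its log2 fold change was -0.73 (standard error 0.14, limma adjusted p = 0.513), while its other probes gave -0.91, also past the unadjusted threshold, and -0.30, not past it. SCEL, encoding the envelope precursor sciellin, was at 11.36, 10.84 and 10.66 in Control 1, 2 and 3 and at 10.21, 10.36 and 10.46 in DFX 1, 2 and 3, which gave -0.61 on the log2 scale (standard error 0.20, limma adjusted p = 0.553). All treated tumors lay below all control tumors for both genes, which was a condition for naming them here. The small proline-rich genes of the SPRR2 group had positive point estimates, 0.58 for SPRR2A, 0.07 for SPRR2D, 0.48 for SPRR2E and 0.51 for SPRR2F, and SPRR1A had 0.14, with none past the threshold unless Control 1 was left out, when SPRR2A, SPRR2E and SPRR2F passed it. These signs were opposite to those of SPRR1B and SPRR3, and the difference was not tested.

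Of the clade B serpins related to SERPINB3 and SERPINB4, 9 were tested, 2 were lower with DFX and 0 were higher (22.2% called, against 7.98% of all tested genes), with a median of -0.21. SERPINB13, an inhibitor of the cathepsins of keratinocytes, was at 10.66, 11.04 and 10.93 in Control 1, 2 and 3 and at 10.30, 10.45 and 10.62 in DFX 1, 2 and 3, a log2 fold change of -0.42 (standard error 0.15, limma adjusted p = 0.570). SERPINB2, the plasminogen activator inhibitor PAI-2, had a log2 fold change of -0.68 (limma adjusted p = 0.576) with overlapping groups. Counted with both members, 7 of 8 tested serpins on chromosome 18 had lower means with DFX, 2 of them past the threshold, and 1 of 3 on chromosome 6, where 0 passed, beside 52.3% of all tested genes with lower means, and the difference between the chromosomes was not tested.

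The remaining structural and regulatory lists held few calls. Of 16 tested squamous regulators, which act beside TP63, 0 passed, and the median was 0.019. Of 10 tested partners of DSG3 and DSC3 in the desmosome, 0 passed, with 9 of 10 point estimates above 0 and a median of 0.10. The largest of these estimates, 0.47 for DSC1, came from a probe well above background on no array. Of 9 tested hemidesmosome genes, whose products anchor basal cells to the basement membrane, 0 passed, with 8 below 0 and a median of -0.14. Among all tested genes, 52.3% of the estimates were below 0. The 8 basal keratins had 0 calls and a median of -0.046, with log2 fold changes of 0.14 for KRT5, -0.29 for KRT14, 0.015 for KRT6A and -0.064 for KRT17, although KRT14 and KRT6C passed as lower when Control 1 was left out. KRT5 and KRT14 form the keratin pair of basal cells.

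In the list of basal-like tumor markers, 20 genes were tested, 3 were lower with DFX and 0 were higher (4.29% and 3.68% of all tested genes), with a median of -0.064. LEMD1, a cancer-testis antigen, was at 10.93, 10.71 and 11.07 in Control 1, 2 and 3 and at 9.67, 10.34 and 10.41 in DFX 1, 2 and 3, a log2 fold change of -0.77 (standard error 0.23, limma adjusted p = 0.526). Its groups were separated, again a condition for naming it, with DFX 1 the lowest tumor. SCEL, described above, was also among the genes past the threshold.

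The classical marker list stands at the opposite pole of the tumor types. Of its 22 tested genes, 5 were higher with DFX at this threshold and 0 were lower, which is 22.7% against 7.98% of all tested genes, and 21 of 22 point estimates were above 0, with a median of 0.92 beside the -0.24 of the members. SPINK4, a secreted protein of goblet cells, was at 8.72, 9.17 and 8.13 in Control 1, 2 and 3. In DFX 1, 2 and 3 it was at 11.17, 10.30 and 10.23, a log2 fold change of 1.90 (standard error 0.36, limma adjusted p = 0.513). The other genes past the threshold were CTSE, KRT20, REG4 and BTNL8, the last with overlapping groups, and REG4 and BTNL8 were each well above background on 2 of the 3 control arrays. GATA6, the transcription factor associated with classical tumors, had a log2 fold change of 0.16, with a standard error of 0.10, which did not pass the threshold (limma adjusted p = 0.70), although its groups were separated. Control 3 was low across this list, at a median deviation of -1.48, a tumor in which the members had a median deviation of 0.15. Without Control 3 the median of the classical list was 0.37 and 8 of its genes were called, and without DFX 1 or without DFX 2 the count was 2. The shares of all tested probes called were 7.89% without Control 3, 5.94% without DFX 1 and 7.72% without DFX 2. The difference between the members and the classical list was not tested.

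**Figure D4:**
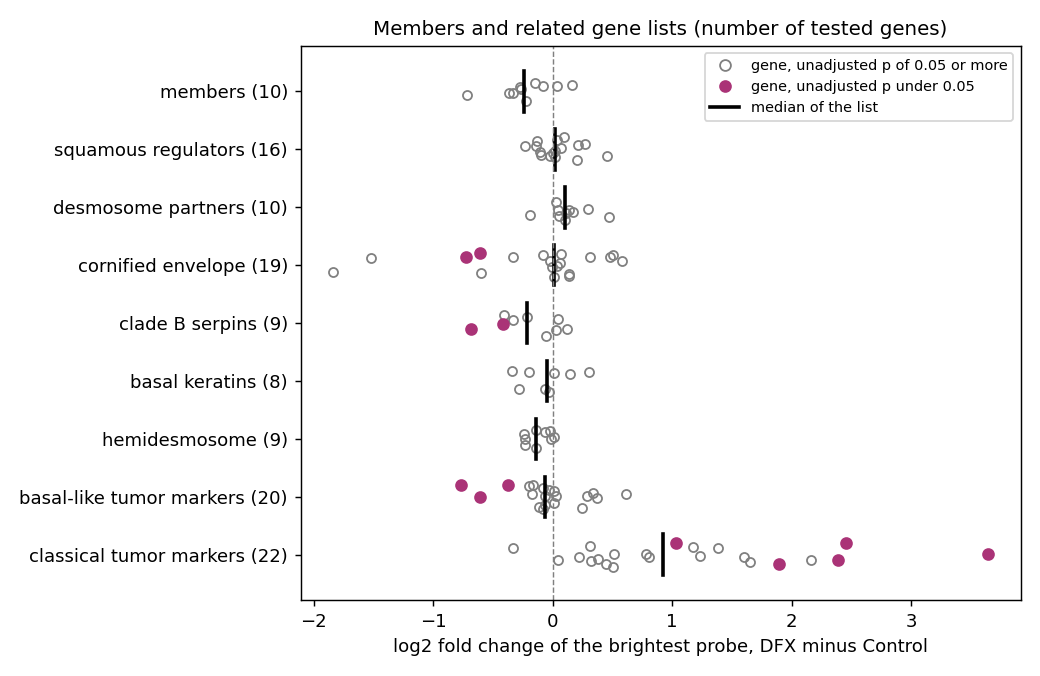
Log2 fold change of the brightest probe of each tested gene (x axis, DFX minus control) for the members and 8 related lists, with the number of tested genes in parentheses, filled points for an unadjusted limma p under 0.05 and a black bar at the median. The members sit around -0.24 without a filled point, the 7 squamous and basal-like lists have medians from -0.21 (clade B serpins) to 0.10 (desmosome partners), and the classical list has a median of 0.92.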

How the data were processed

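RNA from 3 vehicle-treated and 3 DFX-treated tumors was labeled and hybridized to Agilent 60-mer arrays. The authors deposited scanner output with processed signal intensities per spot and a detection p-value against background for each spot. Their notes name Agilent Feature Extraction 9.5.1.1, whereas the deposited file headers give version 10.7.1.1 and build hg19. The deposited intensities were already background-corrected by that software and were converted here to log2 and quantile-normalized over 58717 non-control spots. After normalization, 1398 spot values marked as outliers were left out. The deposited table of processed values, converted here to log2 and used as an alternative, differed from the values used here by a median of 0.0093. Spots were averaged per probe (50599 probes), and probes whose median detection p-value was under 0.05 on all 6 arrays were kept (31807 probes). Each probe was fitted with limma 3.58.1 in R 4.3.3 (lmFit and eBayes, no covariate), and p-values were adjusted over the 31807 probes by the Benjamini-Hochberg method. The threshold was a p of 0.05 as in the study, taken here as unadjusted since the sources used here do not name an adjustment. Gene lists were read by the brightest tested probe of each gene. The number of arrays limits the precision.

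All member probes were described. From the other lists the text names genes past the threshold without overlap between groups, KRT5, KRT14, KRT6A, KRT17 and GATA6 whatever their values, and cell type markers. A gene that met this rule is not reported here. BTNL8, SERPINB2, CNFN, KRT6C, CRNN, KRTDAP, SBSN and the SPRR genes other than members were named after their values were seen. The members and lists were chosen with earlier results of these data known. The scripts were tested on simulated data. Alternatives covered scaling, background correction, the filter on dim probes, the test, array weights, blocks for replicate number and slide column, and leaving out each tumor. A filter on positive and significant signal was added after seeing the data. Same-numbered tumors did not deviate together (correlations of 0.027, 0.027 and 0.016), so the numbers were not taken as pairs. Promoter sequences came from RefSeq (GRCh38.p14), in which 9 members had an entry, and the accession of each of the 11 member probes matched its symbol.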

Additional observations from a re-analysis of the deposited data

How the results depend on the processing

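Of 220 log2 fold changes of member probes under other settings, 206 kept their sign and their side of the threshold, 6 changed sign, 8 moved past the threshold (1 of SPRR3, 7 of TRIM29) and 0 lost a call. The count of member probes past the threshold, 0 as reported, was 1 under normexp background correction, raw mean signal, no filter on dim probes, the filter on probes well above background on all arrays, the Kruskal-Wallis H test, the linear model without moderation and array quality weights, and was TRIM29 each time. Leaving out each tumor in turn gave 0 to 1. The signs that changed were those of S100A2 (-0.22 to 0.11 with each tumor left out, above 0 without Control 3), IVL (-0.61 to 0.015, above 0 without Control 1), the Dsc3b probe of DSC3 (-0.040 with median scaling and -0.039 with slide column as a block) and its Dsc3a probe (-0.074 with median scaling, and -0.014 to 0.073 with each tumor left out, below 0 without Control 3). Median scaling moved the median of all probes to -0.10. The median over member genes, -0.24, stayed below 0 in every setting, at -0.31 to -0.13 with each tumor left out and -0.35 with median scaling.

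The wider squamous and basal-like count, 6 as reported, was 11 under array quality weights and also by Kruskal-Wallis, 2 with slide column as a block, and 3 to 11 with each tumor left out. The classical count, 5 as reported, was 10 with normexp, 9 with raw mean signal, 2 without the filter on dim probes, 8 with probes well above background in 1 group, 11 with Kruskal-Wallis, 2 without moderation, 9 with slide column as a block and 2 to 9 with each tumor left out. Of all tested probes, 8.41% were called as reported, 11.4% under array quality weights and 15.5% by Kruskal-Wallis. The share was 4.46% with slide column as a block, 8.70% with normexp and 9.04% with raw mean signal. It was 7.46% without the filter on dim probes, 9.83% with probes well above background in 1 group and 8.27% without moderation. With each tumor left out it was 5.94% to 8.54%. With the replicate number as a block the classical count was 9, the member count was 0 and the wider count was 6. In that setting 7.61% of all tested probes were called. The numbers did not pair the tumors, and 0 of 3 control tumors were closest to the treated tumor of the same number. The cause of these shifts was not tested. With 3 tumors per group, the lower limits of the 95% intervals of the member probes were -1.63 to -0.16 and the upper limits 0.012 to 0.48. Changes within a probe's interval were not excluded.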

Other observations

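Control 1 held the highest level of more cornified envelope genes than any other tumor, a description made after the values were seen and not tested. It was the highest tumor for 9 of 19 tested cornified envelope genes (47.4%) and for 4 of 10 members, against 16.9% of all 22718 tested genes. The share was 30% in both the basal-like tumor markers and the skin surface keratinocyte markers, 25% in both the squamous regulators and the basal keratins, 22.2% in the hemidesmosome genes, 11.1% in the clade B serpins and 0% in the desmosome partners. It stood at least 1 log2 unit above every other tumor for IVL among the members and for CRNN, KRTDAP and SBSN in the cornified envelope list, which was so for 74 of all tested genes (0.326%). CRNN, encoding cornulin of the esophageal and epidermal surface, was at 9.90, 5.18 and 7.50 in Control 1, 2 and 3 and at 5.45, 5.77 and 5.85 in DFX 1, 2 and 3. KRTDAP, a secreted protein of differentiating keratinocytes, was at 9.83, 5.25 and 5.02 in Control 1, 2 and 3 and at 4.69, 5.37 and 5.48 in DFX 1, 2 and 3. SBSN, encoding suprabasin, was at 8.84, 3.31 and 4.55 in Control 1, 2 and 3 and at 3.49, 6.33 and 5.08 in DFX 1, 2 and 3, and was well above background on 2 arrays of each group. The median deviation of Control 1 over the skin surface keratinocyte markers was 0.17. Of those 15 markers, 3 were well above background on all arrays. Another 6, DSC1, LCE1B, FLG2, KRT2, HRNR and LCE2B, were so on no array, on probes for human genes that say nothing of mouse skin. Within the members, the SPRR3 and IVL levels of Control 1 were 0.94 and 0.93 above the mean of all tumors, while its TP63 level was -0.25 from that mean.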
